A study of Mus musculus with 6 samples.

Results

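The genes described here are 34 genes of the endoplasmic reticulum (ER) stress response and the integrated stress response. They were chosen by name, with earlier results of these data known. All 34 were found among the 42612 loci of the deposited table, and 32 reached 1 FPKM (sequenced fragments per unit of transcript length and of library size) in at least 3 of the 6 libraries, so that they could be tested. Those 32 also reached 1 FPKM in all 6 libraries. Each library came from the liver of a male ICR mouse, an outbred stock, aged 8 weeks per the labels. The sulfasalazine group was 3 mice given 1000 mg/kg sulfasalazine in 0.1% DMSO by oral gavage for 4 weeks, and the control group was 3 mice given the same volume of 0.1% DMSO. The title of the series names liver injury by the drug as the subject.

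The ER folds secreted and membrane proteins, and hepatocytes, which secrete most plasma proteins, are rich in it. When unfolded proteins accumulate there, the sensors ATF6 and IRE1 (gene Ern1) act through cleaved ATF6 and spliced XBP1, which raise transcription of chaperones and of the machinery for ER-associated degradation (ERAD). The sensor PERK (gene Eif2ak3) phosphorylates eIF2alpha, which slows translation in general but favours translation of ATF4, and ATF4 raises CHOP (gene Ddit3), Trib3, Asns and other genes. ATF6 cleavage, Xbp1 splicing and ATF4 protein are therefore not visible in a gene's FPKM, whereas the transcripts of their target genes are.

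The 2 transcriptional arms are recognised by short promoter elements, which are printed here because they are the sites through which each arm is known to act; the genes were put in the arms by name, not by these elements. Promoter windows from RefSeq on GRCm38.p6, running from 250 bases before to 50 after the start site, were available for 30 of the 34 genes. The ER stress element was searched on both strands as CCAAT and CCACG with 9 bases of any kind between them, the ER stress element II as ATTGG and CCACG with 1 base of any kind between them, and the C/EBP-ATF response element, which ATF4 dimers bind, as TGATGNAA. No 2 of these matches overlapped in the windows of these genes. The ER stress element stood in the windows of 7 of 13 chaperone and folding genes and in 0 of 7 ATF4 target genes, against 0.119% of all 32851 windows. The C/EBP-ATF element stood in those of 0 of 13 chaperone and folding genes and 3 of 7 ATF4 target genes, against 3.97% of all windows. The element II stood in those of Herpud1 and Dnajb11, against 0.0365% of all windows. The sequences below run 5′ to 3′ on the gene's strand, and capitals mark the match, which reads as its reverse complement where it lies on the opposite strand.
Hspa5, ER stress element beginning 65 bases before the start, chr2:34772015-34772053, + strand: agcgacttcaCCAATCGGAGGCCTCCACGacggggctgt
Hsp90b1, the nearer of 2 ER stress elements, 107 bases before the start, chr10:86705523-86705561, - strand: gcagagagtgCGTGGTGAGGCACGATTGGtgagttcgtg
Pdia6, ER stress element 98 bases before the start, chr12:17266481-17266519, + strand: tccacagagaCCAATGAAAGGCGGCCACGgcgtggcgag
Creld2, ER stress element 126 bases before the start, chr15:88819510-88819548, + strand: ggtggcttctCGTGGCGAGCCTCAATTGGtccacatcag
Syvn1, ER stress element 44 bases before the start, chr19:6046522-6046560, + strand: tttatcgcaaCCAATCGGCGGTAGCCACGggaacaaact
Herpud1, element II 52 bases before the start, chr8:94386367-94386397, + strand: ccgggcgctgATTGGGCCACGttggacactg
Herpud1, C/EBP-ATF element 112 bases before the start, chr8:94386307-94386334, + strand: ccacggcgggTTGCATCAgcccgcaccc
Trib3, C/EBP-ATF element 14 bases past the start, chr2:152344029-152344056, - strand: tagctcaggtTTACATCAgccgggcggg
Asns, C/EBP-ATF element 23 bases before the start, chr6:7693215-7693242, - strand: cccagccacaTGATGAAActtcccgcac
Atf3, C/EBP-ATF element 110 bases before the start, chr1:191183426-191183453, - strand: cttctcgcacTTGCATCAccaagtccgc

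No gene of the response passed the test. Of the 32 tested genes, 0 passed an adjusted p of 0.05 in either direction (limma on log2(FPKM + 1), Benjamini-Hochberg over 11969 loci), where 0.0167% of all loci passed upward and 0.0% downward. At an unadjusted p under 0.05, 1 gene was higher and 0 lower, against 3.64% and 3.87% of all loci and 7.51% in either direction. The groups did not overlap for 3 genes, higher for Trib3 and P4hb and lower for Atf4, which is 9.38% of the 32 against 13.2% of all loci. The 2 group means lay further apart than the pooled SD of the mice for 6 of the 32 genes, which is 18.8% against 33.6% of all loci. In bulk liver RNA, fewer cells of a type and less RNA per cell cannot be told apart.

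**Figure D1:**
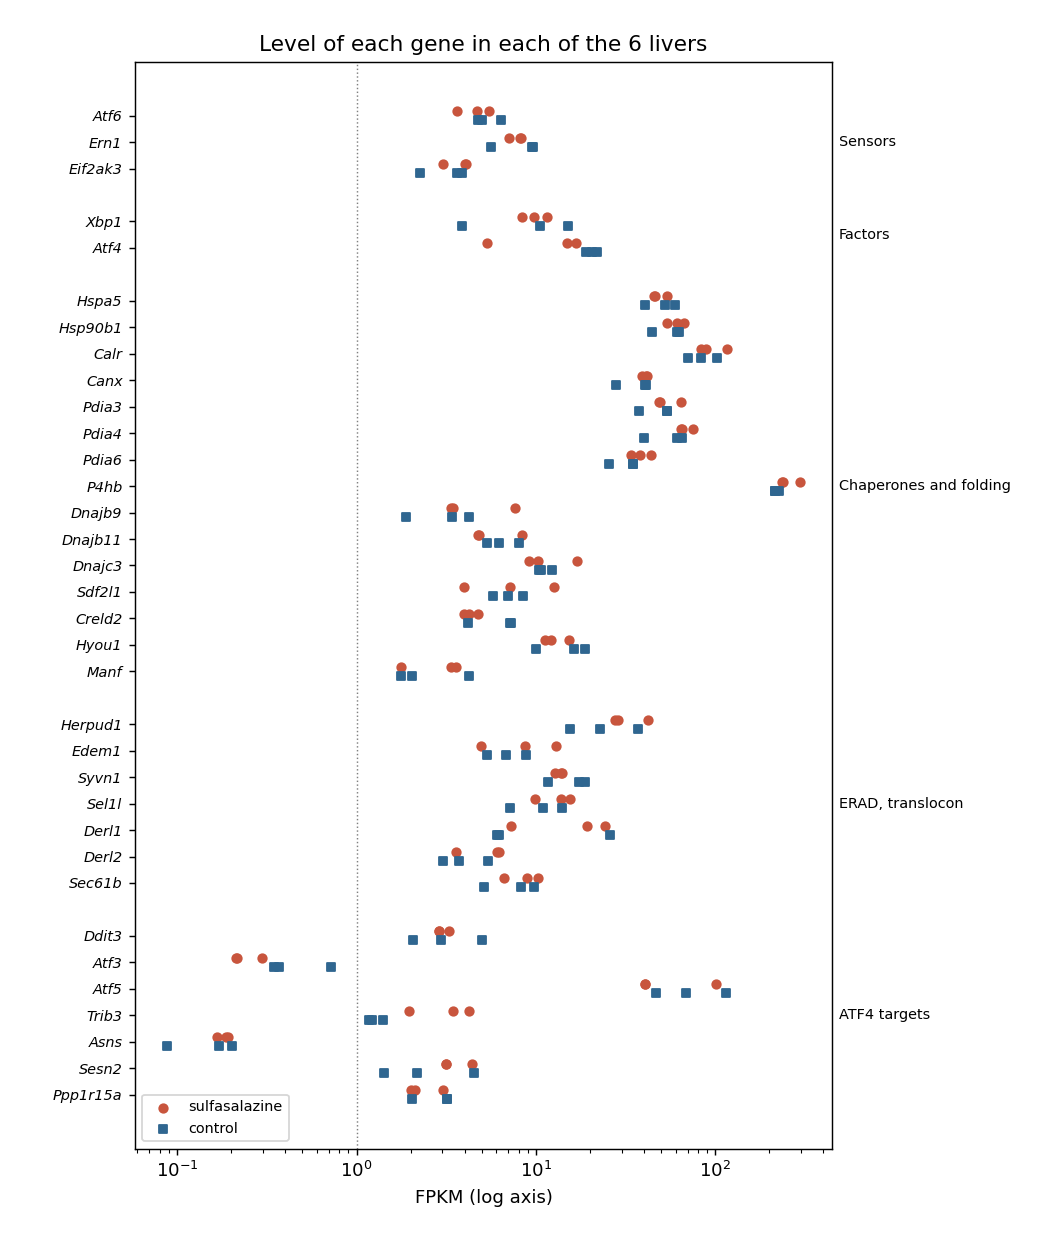
FPKM on a log axis for each of the 34 genes, with a point for each of the 3 sulfasalazine livers above and a square for each of the 3 control livers below; the dotted line marks 1 FPKM. Only the points of Trib3, P4hb, Atf4 and Atf3 do not overlap between groups; Asns and Atf3 lie below 1 FPKM.

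The 3 sensors overlapped between groups. Atf6 was at 5.45, 3.61 and 4.71 FPKM in sulfasalazine livers and at 6.35, 4.999 and 4.74 FPKM in control livers. Ern1, the kinase and RNase that splices Xbp1, was at 7.08, 8.26 and 8.18 FPKM in sulfasalazine livers and at 5.59, 9.53 and 9.68 FPKM in control livers. Eif2ak3, which encodes PERK, was at 4.02, 3.04 and 4.10 FPKM in sulfasalazine livers and at 2.25, 3.65 and 3.89 FPKM in control livers. A further row with the name Eif2ak3 reached up to 1.52 FPKM, and with FPKM summed per name its log2 fold change was 0.11. Control mouse 1 had the lowest Ern1 and Eif2ak3 and the highest Atf6 of the 6 mice. Their log2 fold changes lay between -0.19 and 0.16, and the smallest adjusted p was 0.860 (limma).

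Among the tested transcription factors, Atf4 had the lowest log2 fold change of FPKM + 1. Atf4 was at 16.8, 14.9 and 5.35 FPKM in sulfasalazine livers and at 19.0, 22.0 and 20.5 FPKM in control livers. Every sulfasalazine liver lay below every control liver, and sulfasalazine mouse 3 lay far below the other 5. The means were 12.3 ± 6.12 and 20.5 ± 1.49 FPKM (SD, n = 3 each). On the log2 scale the difference was -0.82 (SE 0.40, 95% interval -1.79 to 0.14; limma, adjusted p = 0.726), and it was -0.36 without sulfasalazine mouse 3. The gene lies on chromosome 15 from 80255184 to 80257541 in GRCm38, and no other annotated gene overlaps it.

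Xbp1, the factor made active by splicing, was at 11.5, 9.69 and 8.40 FPKM in sulfasalazine livers and at 3.87, 10.6 and 15.0 FPKM in control livers. The control livers spanned both extremes, and the sulfasalazine livers fell between them. The log2 fold change was 0.16 (95% interval -0.90 to 1.22; limma, adjusted p = 0.953), and it was -0.34 without control mouse 1. Atf5, a factor that like ATF4 is translated when eIF2alpha is phosphorylated, was the most abundant factor, at 40.5, 100.8 and 40.7 FPKM in sulfasalazine livers and at 115, 46.6 and 68.2 FPKM in control livers. Its values overlapped widely, and reads of the overlapping genes Nup62 and Il4i1 on the opposite strand cannot be told apart from its own, since strand is not stated.

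Ddit3 and Atf3, both known for rising under strong stress, had low FPKM in both groups. Ddit3, which encodes the pro-apoptotic factor CHOP, was at 2.88, 3.29 and 2.88 FPKM in sulfasalazine livers and at 2.95, 5.02 and 2.05 FPKM in control livers. Both the highest and the lowest Ddit3 were in control livers, and the log2 fold change was -0.06 (95% interval -0.66 to 0.55; limma, adjusted p = 0.973). Its gene overlaps Mars on the opposite strand. Atf3, an immediate stress factor, was at 0.216, 0.296 and 0.214 FPKM in sulfasalazine livers and at 0.371, 0.346 and 0.717 FPKM in control livers. Those values do not overlap, but they lay below the level at which a locus was tested.

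The chaperones and folding enzymes that ATF6 and XBP1 raise overlapped between groups in 14 of 15 genes, P4hb being the exception. Groups that did not overlap were thus 6.67% of these genes, against 13.2% of all loci. Of the 15 genes, 11 had positive and 4 negative log2 fold changes, 0 passed, and the median was 0.12 against -0.0021 over all tested loci (range -0.41 to 0.44; smallest adjusted p by limma 0.730). Positive values were 73.3% of these genes and 49.6% of all loci. That count rested on single mice: without control mouse 1 it was 7 of 15 with a median of -0.01, and without sulfasalazine mouse 3 it was 8 of 15 with a median of 0.02.

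Hspa5, the ER chaperone BiP that holds the sensors inactive, was at 46.3, 53.5 and 45.7 FPKM in sulfasalazine livers and at 40.5, 52.3 and 59.5 FPKM in control livers. The control livers again held both extremes. Its log2 fold change was -0.05, with a 95% interval from -0.49 to 0.39 (limma, adjusted p = 0.964). Hsp90b1, the ER member of the HSP90 family, was at 53.6, 61.1 and 66.9 FPKM in sulfasalazine livers and at 44.6, 61.3 and 62.4 FPKM in control livers, with a log2 fold change of 0.12 (95% interval -0.33 to 0.56). The row of Hsp90b1 also holds a processed transcript annotated as Gm15344.

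The lectin chaperones, which retain glycoproteins until they fold, overlapped as well. Calr was at 88.3, 82.7 and 116 FPKM in sulfasalazine livers and at 70.6, 102 and 83.5 FPKM in control livers. Canx was at 41.0, 38.8 and 41.4 FPKM in sulfasalazine livers and at 27.9, 41.0 and 40.4 FPKM in control livers. For both genes the lowest of the 6 values was in control mouse 1 and the highest in sulfasalazine mouse 3.

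The protein disulfide isomerases, which form and exchange disulfide bonds, had positive log2 fold changes in the 4 members among the 34 genes, P4hb, Pdia3, Pdia4 and Pdia6; without control mouse 1 that of Pdia3 was -0.0092. P4hb, the founding isomerase and a subunit of prolyl 4-hydroxylase, was the most abundant of the 34 genes. It was at 238, 234 and 297 FPKM in sulfasalazine livers and at 225, 216 and 214 FPKM in control livers, so that every sulfasalazine liver lay above every control liver. The means were 257 ± 35.3 and 218 ± 6.06 FPKM (SD, n = 3 each), and the log2 fold change was 0.22 (SE 0.15; limma, adjusted p = 0.802). Without sulfasalazine mouse 3 it was 0.11. The gene lies on chromosome 11 from 120560298 to 120573253 in GRCm38.

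Pdia4 was at 65.5, 64.4 and 75.1 FPKM in sulfasalazine livers and at 39.9, 64.8 and 60.7 FPKM in control livers (log2 fold change 0.33, limma, adjusted p = 0.796). The table labels that row Mir704, a microRNA inside the gene, and it was matched by its Ensembl transcripts. Pdia6 was at 37.9, 33.9 and 43.9 FPKM in sulfasalazine livers and at 25.6, 34.8 and 34.9 FPKM in control livers. Pdia3 was at 49.2, 48.2 and 64.5 FPKM in sulfasalazine livers and at 37.7, 53.9 and 53.8 FPKM in control livers. In each of the 3 genes control mouse 1 was the lowest and sulfasalazine mouse 3 the highest of the 6 mice, and without control mouse 1 the Pdia4 log2 fold change was 0.12.

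**Figure D2:**
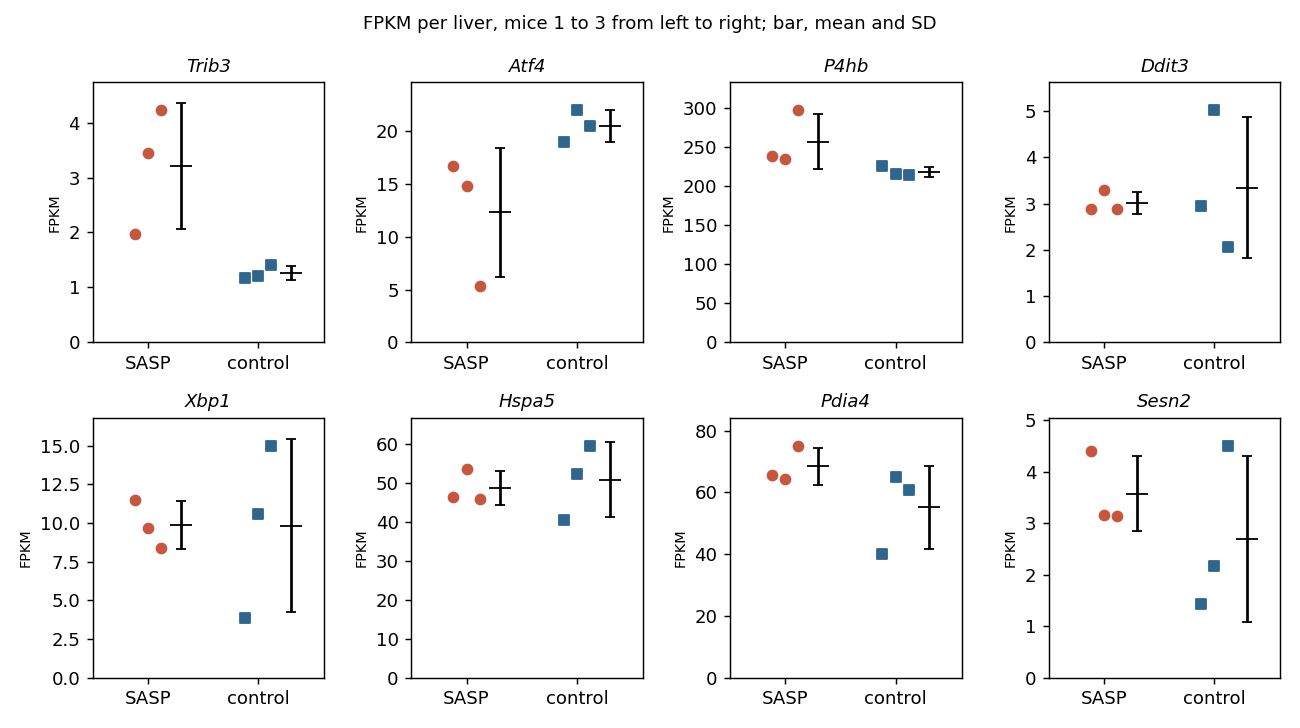
FPKM per liver on linear axes from 0 for 8 genes, sulfasalazine (SASP) to the left of control, with mice 1 to 3 from left to right in each group and the mean ± SD beside them. Trib3 and P4hb are higher and Atf4 lower in every sulfasalazine liver; in Xbp1, Ddit3, Hspa5, Pdia4 and Sesn2 the groups overlap.

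Smaller and less abundant cofactors followed no common direction. Dnajb9, a co-chaperone of BiP, was at 3.45, 3.36 and 7.64 FPKM in sulfasalazine livers and at 1.89, 4.26 and 3.42 FPKM in control livers. Its log2 fold change of 0.44 came mostly from sulfasalazine mouse 3 and control mouse 1, since the other 4 livers lay between 3.36 and 4.26 FPKM. Creld2, a secreted isomerase-like protein, was at 4.74, 3.96 and 4.22 FPKM in sulfasalazine livers and at 4.18, 7.13 and 7.26 FPKM in control livers. Its log2 fold change of -0.41 was the lowest of the chaperone group (SE 0.20; limma, adjusted p = 0.730). Without control mouse 1, the control liver that overlaps the sulfasalazine livers, it was -0.63 (limma, adjusted p = 0.298).

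Hyou1, a large chaperone and exchange factor of BiP, had 12.8 ± 2.08 FPKM in sulfasalazine livers and 15.0 ± 4.49 FPKM in control livers (SD, n = 3 each). Sdf2l1, a partner of ER co-chaperones, was both lowest and highest of the 6 mice within the sulfasalazine group, at 7.20, 3.99 and 12.7 FPKM, against 5.74, 8.52 and 7.01 FPKM in control livers. Dnajb11, Dnajc3 and Manf had log2 fold changes of -0.13, 0.07 and 0.11. Dnajb11 and Dnajc3 are co-chaperones of BiP, and Manf is a secreted protein of the stressed ER whose row also holds the gene Rbm15b.

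The 7 genes of ERAD and of the translocon leaned upward, with 6 positive log2 fold changes, a median of 0.29 and 0 passing (range -0.20 to 0.54; smallest adjusted p by limma 0.840). Positive values were 85.7% of these genes and 49.6% of all loci, but the groups overlapped in each of the 7. The median was 0.09 without control mouse 1. On the further lists described below, 22 other ERAD genes had 10 positive and a median of -0.03. Translocon, signal peptidase and oligosaccharyltransferase genes had 19 of 27 positive and a median of 0.14. Herpud1, a membrane protein of the degradation complex, was at 42.1, 27.6 and 28.5 FPKM in sulfasalazine livers and at 15.4, 22.8 and 37.2 FPKM in control livers. Control mouse 3 lay above 2 of the sulfasalazine mice, and the log2 fold change was 0.43 (95% interval -0.40 to 1.26).

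Derl1, a channel component for retrotranslocation, fell into high and low livers that did not follow treatment. It was at 24.2, 7.27 and 19.3 FPKM in sulfasalazine livers and at 25.8, 6.20 and 6.07 FPKM in control livers. The range of 4.25 times between the highest and the lowest liver was the largest among the tested genes. Derl2 was at 3.60, 6.10 and 6.21 FPKM in sulfasalazine livers and at 3.72, 5.43 and 3.02 FPKM in control livers.

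Sel1l, the scaffold of the HRD1 ubiquitin ligase, had 13.1 ± 2.85 and 10.7 ± 3.38 FPKM in sulfasalazine and control livers (SD, n = 3 each). Syvn1, the ligase itself, had 13.5 ± 0.590 and 15.97 ± 3.74 FPKM, the only negative log2 fold change of the 7, at -0.20. Edem1, which directs misfolded glycoproteins to degradation, had 8.86 ± 3.95 and 6.97 ± 1.73 FPKM. Those values are of 1 of 3 rows with its name, and the others reached up to 5.72 FPKM. With FPKM summed per name the median of the 7 genes was 0.21. Sec61b, a subunit of the protein-conducting channel, had 8.58 ± 1.84 and 7.72 ± 2.36 FPKM in sulfasalazine and control livers.

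ATF4 target genes were divided. Of 7 listed targets 5 were tested, with 2 positive and 3 negative log2 fold changes, a median of -0.06 and 0 passing. Trib3, a pseudokinase that binds ATF4 and AKT, had the smallest p of the 34 genes. It was at 1.97, 3.45 and 4.23 FPKM in sulfasalazine livers and at 1.18, 1.21 and 1.41 FPKM in control livers, so that every sulfasalazine liver lay above every control liver. The means were 3.21 ± 1.15 and 1.27 ± 0.127 FPKM (SD, n = 3 each), a ratio of 2.53.

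On the log2(FPKM + 1) scale, which understates changes of low genes, the Trib3 fold change was 0.86 (SE 0.22), with a 95% interval from 0.32 to 1.39. The unadjusted p was 0.00775 and the p adjusted over all loci was 0.428 (limma), so Trib3 did not pass. With 1 mouse left out at a time the fold change stayed between 0.68 and 1.09. The gene lies on chromosome 2 from 152337422 to 152344032 in GRCm38, and no other annotated gene overlaps it. The mouse with the highest Trib3, sulfasalazine mouse 3, had the lowest Atf4 of the 6 mice.

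Sesn2 had the other positive log2 fold change among the tested targets. Sesn2, a leucine sensor that restrains mTORC1, was at 4.41, 3.17 and 3.14 FPKM in sulfasalazine livers and at 1.42, 2.17 and 4.51 FPKM in control livers, control mouse 3 being the highest of all. Its log2 fold change was 0.38 (limma, adjusted p = 0.846). Without control mouse 3 it was 0.71 (limma, adjusted p = 0.565) and the groups did not overlap, as for 23.9% of all loci. Without control mouse 1 it was 0.12, and with FPKM summed over all 3 rows with its name it was -0.011. Ppp1r15a, the phosphatase subunit GADD34 that ends eIF2alpha phosphorylation, was at 3.02, 2.01 and 2.13 FPKM in sulfasalazine livers and at 2.04, 3.18 and 3.17 FPKM in control livers. Asns, asparagine synthetase, reached at most 0.203 FPKM in any library and was not tested.

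The 2 arms were set side by side, with Ddit3, Atf3 and Atf5 counted among the ATF4 targets. The median of the ATF4 targets minus that of the chaperones was -0.18 on the log2 scale. That median of the ATF4 targets is the value of Ddit3 alone, -0.06. The means per mouse, given next, did not share the negative direction in every sulfasalazine liver. In each mouse the mean over the 5 tested ATF4 targets minus the mean over the 15 chaperones, both relative to the control mean, was 0.05, 0.35 and -0.28 in sulfasalazine livers and 0.18, -0.16 and -0.02 in control livers. The sulfasalazine livers spanned the whole range of the control livers, and without control mouse 2 the difference of medians was 0.02. Over the 8 genes with an ER stress element in their window, 5 log2 fold changes were positive with a median of 0.10. The 2 tested genes with a C/EBP-ATF element, Trib3 and Herpud1, were both positive, at 0.86 and 0.43. Of the untested genes with that element, Atf3 was lower in every sulfasalazine liver and Asns overlapped between groups. Herpud1 also holds an element II, and Dnajb11, the other gene with an element II, was at -0.13. Over the 17 tested genes whose windows held none of the 3 elements, 12 were positive with a median of 0.16. Of all tested loci 49.6% were positive. Without control mouse 1, positive values among the 32 tested genes fell from 21 to 14.

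**Figure D3:**
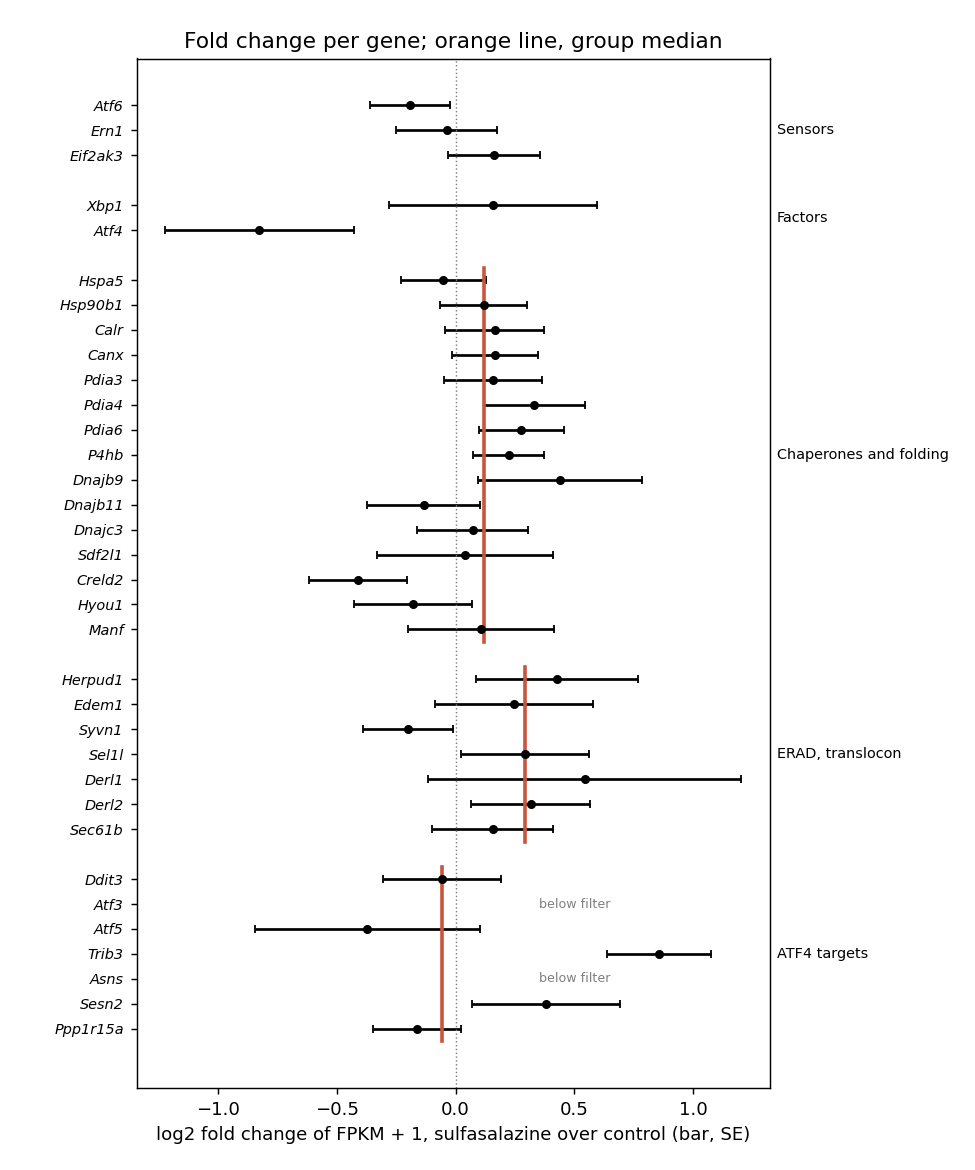
Log2 fold change of FPKM + 1, sulfasalazine over control, for each tested gene with its SE as a bar, ordered by role, with the median of each of 3 groups as an orange line. The medians are 0.12 for chaperones, 0.29 for ERAD and translocon genes and -0.06 for ATF4 targets, and the points spread across 0 in each group.

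Many of the genes had their extreme values in the same mice. Control mouse 1 had the lowest value of the 6 mice in 18 of the 32 tested genes, which is 56.2%, against 19.7% of all tested loci. Sulfasalazine mouse 3 had the highest value in 15 of the 32, which is 46.9%, against 10.6% of all loci. The other highest values were 1 and 2 in sulfasalazine mice 1 and 2, against 16.9% and 21.0% of all loci, and 4, 5 and 5 in control mice 1, 2 and 3, against 18.7%, 16.4% and 16.3%. Among the 15 chaperones those counts were 9 and 11. Genes of 1 library share its RNA and its scaling, so these are counts within 6 libraries and not tests.

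The mean of the 15 chaperones, relative to the control mean on the log2 scale, was -0.01, -0.06 and 0.34 in sulfasalazine livers and -0.24, 0.14 and 0.10 in control livers. Sulfasalazine mouse 3 lay above and control mouse 1 below the other 4 livers. The corresponding mean of the 7 ERAD and translocon genes was 0.22, 0.23 and 0.31 in sulfasalazine livers. In control livers it was -0.15, 0.11 and 0.03, so that for this small group the means did not overlap. Gene by gene, 0 of the 7 had groups that did not overlap, against 13.2% of all loci. For 22 other ERAD genes the corresponding mean was 0.08, -0.11 and -0.06 in sulfasalazine livers. In control livers it was 0.004, 0.11 and -0.12, so that the means of those genes overlapped. Over all tested loci the corresponding mean stayed between -0.04 and 0.03 in each of the 6 livers.

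**Figure D4:**
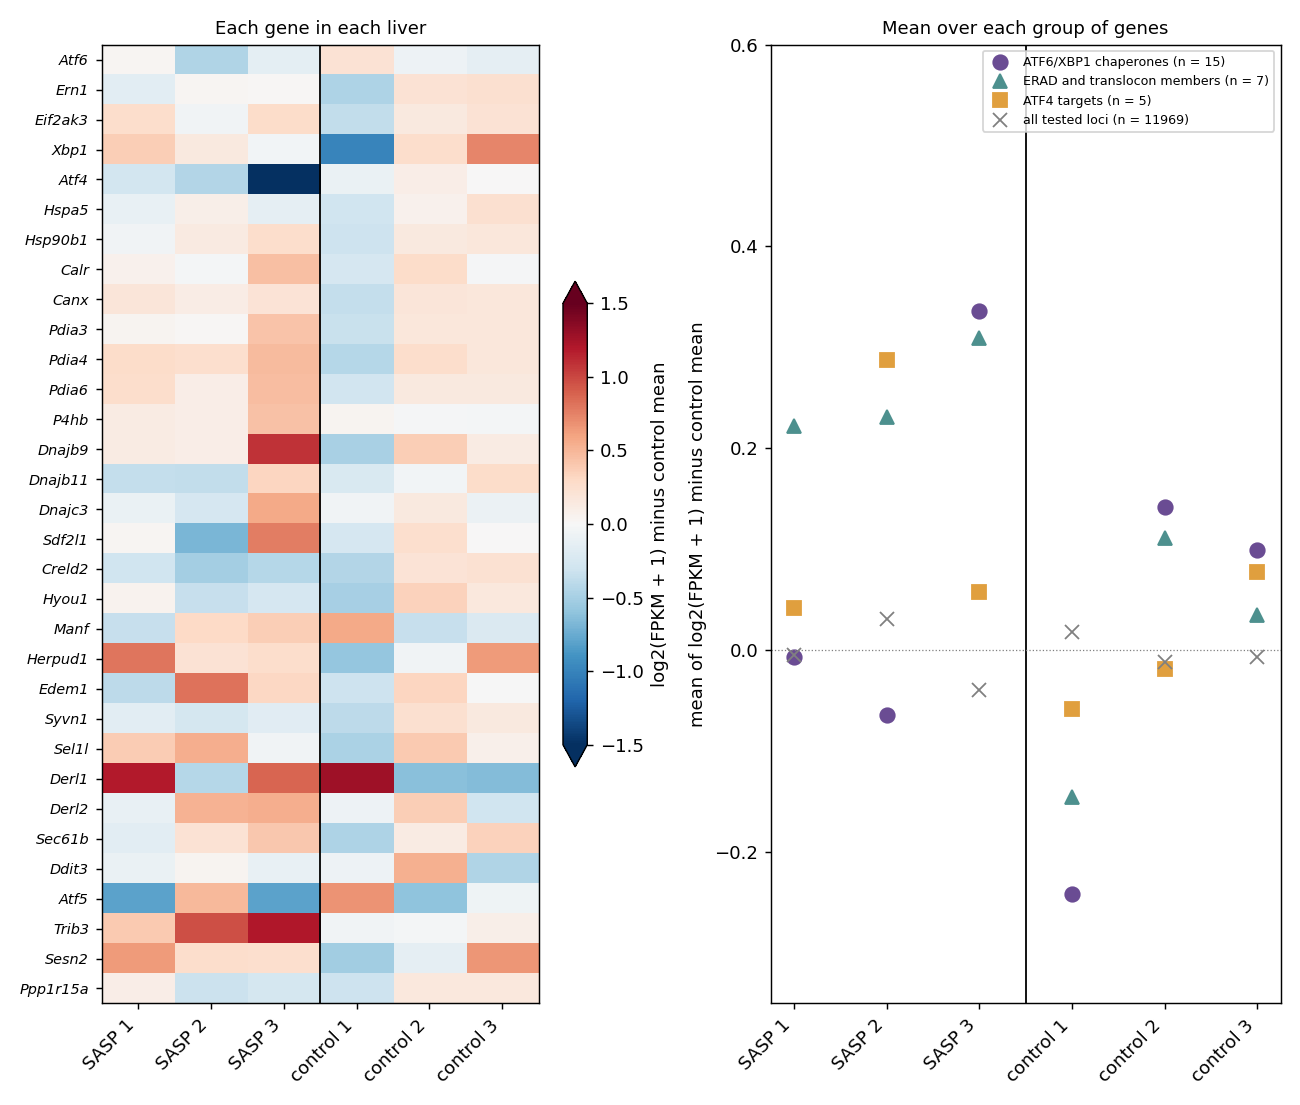
Left, log2(FPKM + 1) minus the control mean for each of the 32 tested genes in each of the 6 livers, the color scale ending at -1.5 and 1.5; right, the mean of the same quantity over 15 chaperones, 7 ERAD and translocon genes, 5 ATF4 targets and all tested loci. The chaperone mean is 0.34 in sulfasalazine mouse 3 and -0.24 in control mouse 1.

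The libraries also differed in composition. The share of FPKM at loci without an Ensembl transcript was 15.7%, 21.1% and 25.3% in sulfasalazine livers and 22.3%, 13.6% and 11.0% in control livers. It was highest in sulfasalazine mouse 3 and next highest in control mouse 1, whose chaperones lay on opposite sides of 0. Loci at 1 FPKM or more numbered 12960, 15903 and 12391 in sulfasalazine livers and 15838, 13389 and 13452 in control livers. The 2 livers with the most such loci, sulfasalazine mouse 2 and control mouse 1, had the lowest chaperone means, and the liver with the fewest, sulfasalazine mouse 3, had the highest. The part of these features in the chaperone values was not tested. The hepatocyte marker Alb was at 14700 FPKM or more in each library. Of 9 tested hepatocyte markers, 2 had positive and 7 negative log2 fold changes, with a median of -0.16. Positive values were 22.2% of these markers and 49.6% of all loci. Serpina1a and Serpina1c were lower in every sulfasalazine liver, at -0.47 and -0.26, and Hnf4a was higher in every one, at 0.27, and 0 of the 9 passed (limma). Groups that did not overlap were 33.3% of the 9, against 13.2% of all loci. Jchain and Mzb1, markers of plasma cells, which hold much ER, reached at most 0.685 FPKM. The summed level of 9 plasma cell and B cell markers was 5.73 to 6.46 FPKM in sulfasalazine livers and 4.19 to 15.8 FPKM in control livers. Of 10 pancreatic acinar markers 3 had a row, summing to 3.65 to 8.14 FPKM in sulfasalazine livers and 6.12 to 8.56 FPKM in control livers, nearly all from Cela1. Control mouse 3 had the highest macrophage markers, summing to 338 FPKM, where the other mice had at most 164 FPKM. The same mouse had the highest neutrophil markers, at 22.8 FPKM against at most 2.01 FPKM, and the highest stellate cell and matrix markers, at 113 FPKM against at most 71.9 FPKM. All 9 tested stellate cell and matrix markers were negative on the log2 scale (median -0.41), where 49.6% of all loci were positive, and 0 of them passed (limma). Sulfasalazine mouse 2 was the lowest of the 6 mice in each of these 9, against 16.5% of all loci. The part of these cell types in the results was not tested.

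Beyond the 34 genes, 139 others of the same pathway stood on 6 lists. Of the 117 tested, 0 passed (limma), 68 had positive log2 fold changes, against 49.6% of all loci, and the median was 0.04. At an unadjusted p under 0.05, 4 were higher and 2 lower, against 7.51% of all loci in either direction. The 4 include Gdf15, which reached the level for testing only through the sulfasalazine livers, so its place there is not a result. The groups did not overlap for 22 genes, which is 18.8% against 13.2% of all loci. Both the 68 and the 22 include Gdf15 and Vldlr, which reached the level for testing only through the sulfasalazine livers. ER entry genes, meaning translocon, signal peptidase and oligosaccharyltransferase, had 19 of 27 positive, which is 70.4% against 49.6% of all loci, with a median of 0.14. Control mouse 1 was the lowest of the 6 mice in 14 of them and sulfasalazine mouse 3 the highest in 12, which is 51.9% and 44.4%, against 19.7% and 10.6% of all loci. The 24 other ER folding enzymes did not repeat this, at 25.0% and 8.33%. On the remaining lists those shares were 19.05% to 41.7% and 0.0% to 18.2%. Sec63, a J-protein at the channel, was at 5.603, 6.10 and 5.36 FPKM in sulfasalazine livers and at 4.38, 4.41 and 4.40 FPKM in control livers. The groups did not overlap, and the log2 fold change was 0.31 (SE 0.09; limma, adjusted p = 0.536).

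Srpr, the signal recognition particle receptor, was at 34.5, 32.6 and 32.6 FPKM in sulfasalazine livers and at 29.4, 23.9 and 22.7 FPKM in control livers (limma, adjusted p = 0.622). Spcs3, a signal peptidase subunit, had the highest log2 fold change on this list, 1.22, but its control livers spread from 2.10 to 12.3 FPKM. The most abundant row of the list, Srprb, also holds the transferrin gene Trf, so its FPKM cannot be given to Srprb.

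The 24 other ER folding enzymes were evenly divided, with 13 positive and a median of 0.02. Txndc11, a thioredoxin-like membrane protein, was at 3.68, 3.67 and 3.34 FPKM in sulfasalazine livers and at 4.34, 4.19 and 4.90 FPKM in control livers (limma, adjusted p = 0.643). Tmx1, a membrane-bound disulfide isomerase, was at 4.62, 5.997 and 2.74 FPKM in sulfasalazine livers and at 2.21, 2.58 and 2.67 FPKM in control livers (limma, adjusted p = 0.648). In both genes the groups did not overlap. Pdia5 had a log2 fold change of -0.31, and Ppib, the abundant ER cyclophilin, had 0.21.

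The 22 other ERAD genes had a median of -0.03 with 10 positive. Vcp, the ATPase that pulls proteins from the ER membrane, was at 25.9, 29.2 and 28.6 FPKM in sulfasalazine livers and at 21.1, 25.1 and 21.3 FPKM in control livers (limma, adjusted p = 0.685). Tmub1, which encodes a ubiquitin-like membrane protein, had a log2 fold change of -0.24.

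Among 21 other regulators, with a median of -0.01 and 10 positive, Atf6b had the smallest p. Atf6b, the paralog of Atf6, was at 5.88, 6.18 and 4.96 FPKM in sulfasalazine livers and at 6.71, 7.52 and 7.73 FPKM in control livers (log2 fold change -0.32, limma, adjusted p = 0.636). Creb3l2, an ER-bound factor, and Eif2ak2, the eIF2alpha kinase PKR, had log2 fold changes of 0.36 and 0.33, and the abundant Tmbim6, an inhibitor of ER-linked cell death, had 0.04.

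Of 30 other targets of ATF4 and CHOP, 11 reached the level at which a locus was tested, with 5 positive and a median of -0.0039; 2 of those 5, Gdf15 and Vldlr, are described next. Gdf15, a stress-induced circulating hormone that p53 also controls, was at 2.497, 5.39 and 2.48 FPKM in sulfasalazine livers and at 0.587, 1.44 and 0.600 FPKM in control livers. Gdf15 reached the level for testing only through the sulfasalazine livers, since 1 control liver was at 1 FPKM or more, so that it had to differ and its test is not given. Vldlr, a lipoprotein receptor, also reached it only through those livers, at 1.28, 3.03 and 1.39 FPKM in sulfasalazine livers and at 0.703, 0.988 and 0.966 FPKM in control livers. The transporter subunit Slc3a2 had 0.22, and Cth, the most abundant gene of the list, had -0.19.

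Aminoacyl-tRNA synthetases, several of them ATF4 targets, had 11 of 12 positive log2 fold changes, which is 91.7% against 49.6% of all loci. They were small, with a median of 0.10 and a range from -0.02 to 0.26, and 0 passed (smallest adjusted p by limma 0.726). Lars was at 7.03, 6.99 and 5.96 FPKM in sulfasalazine livers and at 4.99, 5.61 and 5.84 FPKM in control livers. Aars and Gars had log2 fold changes of 0.21 each, and Tars, the most abundant, had -0.02. The means of the 12 genes relative to the control mean were 0.12, 0.13 and 0.13 in sulfasalazine livers. In control livers they were -0.07, 0.06 and 0.01, so that the means did not overlap. Gene by gene, the groups did not overlap for 2 of the 12, which is 16.7% against 13.2% of all loci. Control mouse 1 was the lowest of the 6 mice in 5 of the 12 and control mouse 3 in 6, against 19.7% and 15.1% of all loci. Genes of 1 library share its RNA and its scaling.

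**Figure D5:**
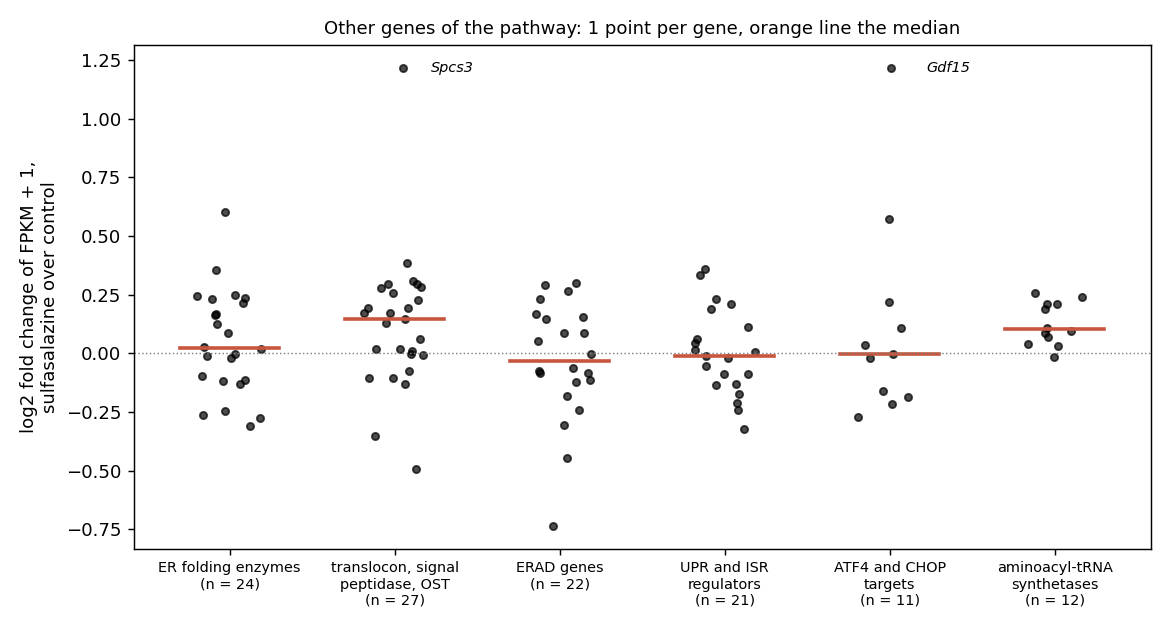
Log2 fold change of FPKM + 1, sulfasalazine over control, for each of the 117 tested genes on 6 further lists of the pathway, with list medians as orange lines. Medians lie between -0.03 and 0.14, and Spcs3 and Gdf15 stand highest at 1.22 each; Gdf15 reached the level for testing only through the sulfasalazine livers.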

How the data were processed

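Total liver RNA was depleted of ribosomal RNA and sequenced, per the labels' protocols. According to the file headers, the values the authors deposited are FPKM for each locus. Bowtie2, StringTie, FastQC and cutadapt appear in the submitters' processing notes, as does the GRCm38.p5 genome. The FPKM is not whole reads, so depth is unknown and no counting interval can be given. The FPKM columns summed to between 224434 and 260047 per library. A gene's row was the one with its name and an Ensembl transcript, or else with its GENCODE M21 transcript, the highest mean being taken.

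Log2(FPKM + 1) was fitted in R 4.3.3 by limma 3.58.1, with a variance trend, over the 11969 loci that reached 1 FPKM in 3 or more libraries, and p-values were adjusted over all of them at 0.05. The fit was tested on simulated data. Each library is a separate labelled sample, and p-values measure the spread between them. The genes and lists were chosen with earlier results of these data known; 6 alternative names of listed genes were dropped. Values in every library are given for those of the 34 genes that did not overlap, had an unadjusted p under 0.05 or were set by name; of each further list the 3 genes with the smallest p and the most abundant are named, except 1 gene that is not reported here, and other genes were chosen after their values were seen. The alternatives were other pseudocounts, filters, scalings, variance models and sets of loci, each library left out, and a replicate block. Promoter windows are from RefSeq on GRCm38.p6. Python 3.11.15 and matplotlib 3.10.9 made the figures.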

Additional observations from a re-analysis of the deposited data

How the results depend on the processing

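Over the 16 alternatives, 0 of the 34 genes passed in any of them (limma), including without limma's trend, and the adjusted p of Trib3 lay between 0.172 and 0.724. Of 503 alternative values of the 32 tested genes, 483 kept their direction. Loci called higher, 2 in all, numbered 1 at pseudocounts 0.1 and 0.01, 0 unfiltered, 6 with 5 FPKM, 23 without the trend, 9 over loci with an Ensembl transcript, 7 with FPKM summed per name and 0 under a replicate block; loci called lower, 0 in all, became 1, 22 and 3 with 5 FPKM, without the trend and over Ensembl loci. Leaving out a mouse gave 1 to 8 higher and 0 to 6 lower, 14 to 23 positive genes and 4 to 9 non-overlapping genes of 32, where 22.1% to 24.3% of all loci did not overlap; those last 2 counts were added after seeing the data. With 5 FPKM, Atf5 alone remained of the ATF4 targets, giving a median of -0.37 and a difference of -0.51 from the chaperones. Leaving out a mouse moved the medians to between -0.085 and 0.21 for ATF4 targets, 0.091 and 0.40 for ERAD genes, -0.01 and 0.23 for chaperones, and -0.31 and 0.02 for the difference. The same fits turned the direction of Ddit3 (-0.28 to 0.21), Ern1 (-0.27 to 0.083), Eif2ak3 (-0.021 to 0.27), Hspa5 (-0.20 to 0.070), Xbp1 (-0.34 to 0.52), Dnajb11 (-0.36 to 0.0038), Dnajc3 (-0.18 to 0.23), Sdf2l1 (-0.33 to 0.40), Pdia3 (-0.0092 to 0.24), Manf (-0.068 to 0.39), Canx (-0.011 to 0.26), Hsp90b1 (-0.036 to 0.20), Edem1 (-0.042 to 0.57) and Sec61b (-0.076 to 0.33). Sesn2 was -0.011 with FPKM summed per name, a setting that adds all 3 rows with its name, the others reaching at most 2.15 FPKM. The cause of the other shifts was not tested. Same-numbered mice had correlations of 0.0097, -0.067 and -0.022 in their deviations from the group means, and the labels do not pair them. How far depth limits the low genes cannot be said from FPKM.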

Other observations

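The 3 genes below belong to the same pathway and were picked after their values were seen. Fgf21, a hormone that ATF4 and PPARalpha control, was at 5.47, 6.10 and 1.11 FPKM in sulfasalazine livers and at 5.14, 5.53 and 0.934 FPKM in control livers. Mouse 3 of each group was low, and the log2 fold change was 0.11 (limma, adjusted p = 0.982). Chac1, a glutathione-degrading enzyme that ATF4 controls, was at 0.610, 0.863 and 1.43 FPKM in sulfasalazine livers and at 0.172, 0.312 and 1.59 FPKM in control livers, highest in mouse 3 of each group. Creb3l3, a liver ER-bound factor cleaved like ATF6, was at 61.1, 59.3 and 47.9 FPKM in sulfasalazine livers and at 68.1, 57.5 and 49.4 FPKM in control livers.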
